A study of Mus musculus with 6 samples.

Results

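Heat shock proteins and their co-chaperones were described in red cell precursors of the mouse fetal liver, comparing a more mature sorted subset, S3, with a less mature one, S1. Members were the genes of the array whose symbol belongs to the Hsp70 and Hsp90 families (with the mitochondrial chaperonin genes Hspd1 and Hspe1), the small heat shock proteins, the J proteins (Dnaja, Dnajb and Dnajc) or the CCT chaperonin. This symbol rule, which used no measured value, found 82 genes of 18193 with a probe set of 1 symbol, and together they had 201 probe sets. For each gene the brightest probe set over the 6 arrays was used. Of the 82 members, 69 were bright enough to be tested and 13 were not. A probe set was called above background on an array where its signal passed the 95th percentile of 27 bacterial control probe sets, and 64 members did so on all 6 arrays.

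Both subsets came from livers of Balb/C embryos, with no treatment or mutation named in the labels, and were sorted by flow cytometry after staining for the transferrin receptor CD71, the red cell antigen Ter119 and other blood lineages. S3 had 3 arrays and S1 had 3 arrays, and each subset was sorted on 3 days, per the series' design text. The stage label gives embryonic day 13.5 for S3 and 12.5 for S1, whereas the source label gives 13.5 for all arrays, so by the stage label subset and embryo age cannot be told apart. Values are the authors' log2 signals on an Affymetrix mouse array, scaled to 18S, Gapdh and beta-actin probe sets. A difference is S3 minus S1 on this log2 scale, and the number of arrays limits its precision.

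Chaperones bind unfolded or partly folded proteins and help them fold, refold, assemble or reach the protease. Hsp70 proteins bind and release their clients in an ATP cycle that J proteins start and exchange factors reset, Hsp90 acts on more folded clients, and the CCT and mitochondrial chaperonins enclose a client in a chamber. Red cell precursors make globin and haem in large amounts, and in human erythroblasts nuclear HSP70 is known to shield the transcription factor GATA1 from caspase cleavage.

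The arrays differed in how far the amplified RNA reached toward the 5' end. The beta-actin 5' minus 3' log2 signal was -0.45, -2.20 and -0.56 in S3 replicates 1 to 3, and -2.08, -2.59 and -0.47 in S1 replicates 1 to 3. S3 replicate 2 and S1 replicates 1 and 2 are therefore called short arrays below, and the other 3 long arrays. The S3 group held fewer short arrays than the S1 group. A fit with this class as a block is called the block below, and its value is given beside each named gene that it called and the fit without it did not. The median log2 signal of all probe sets ran from 1.83 to 2.55 in S3 and from 1.98 to 2.94 in S1, and arrays correlated at 0.901 to 0.965 where they shared a subset and at 0.844 to 0.919 otherwise. All 5 markers of less mature erythroid cells (Kit, Gata2, Myb, Sox4 and Hhex) were lower in S3 and 5 of 6 measured markers of more mature cells were higher, as the subset labels have it. None of the macrophage, hepatoblast, megakaryocyte or endothelial markers tested was called, and of the granulocyte markers only Prtn3 was, lower in S3. The summed linear signal of 5 megakaryocyte markers was nevertheless 326 to 346 in S3 and 76.7 to 174 in S1. That of 8 hepatoblast markers was 271 to 1010 in S3 and 299 to 347 in S1, that of 9 macrophage markers 38.6 to 94.1 in S3 and 30.1 to 122 in S1, that of 5 endothelial markers 7.34 to 14.1 in S3 and 13.0 to 18.3 in S1, and that of 6 granulocyte markers 9.82 to 140 in S3 and 17.9 to 103 in S1. The part of these cells in the differences below was not tested.

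Most chaperone genes did not pass the test, while 3 rose and 7 fell in S3. By limma's moderated test with adjustment over 11959 genes, 3 of 69 tested members were higher in S3 (4.35%, against 2.53% of all genes tested) and 7 were lower (10.1%, against 12.8% of all genes tested). The 3 that rose were the J protein genes Dnajb2 and Dnaja4 and the small heat shock protein gene Hspb8. The 7 that fell were the J protein genes Dnaja3, Dnajc25, Dnajb14 and Dnajc13, the chaperonin subunit genes Cct3 and Cct6a, and the exchange factor gene Hsph1. The median difference of the 69 members was -0.23, and that of all genes tested was -0.33, so that a member with a small negative difference moved less than the median gene. Of the members, 50 had a negative difference and 19 a positive one. In 21 members every S3 array lay below every S1 array (30.4%, against 29.5% of all genes), and in 5 every S3 array lay above (7.25%, against 5.81%). At an unadjusted p under 0.05, 6 members were higher (5.33% of all genes were) and 16 were lower (24.2% of all genes were). The shares of members lower in S3 lay near those of all genes. In sorted bulk samples a change within cells and a change in the mix of cells, or fewer cells of a type and less RNA per cell, cannot be told apart for any of these genes.

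These counts moved with the settings. Over the whole array 302 genes were called higher and 1533 lower, against 478 higher and 972 lower with each array centred on its median, and 698 higher and 1125 lower with quantile normalization. On the centred scale 12.1% of all genes were called, and 5 members were higher (7.25%, against 4% of all genes) and 1 was lower (1.45%, against 8.13%). With short and long arrays as a block 47% of all genes were called, and 7 members were higher (10.1%, against 5.81%) and 32 were lower (46.4%, against 41.2%). The median difference with this block was -0.45 over the members and -0.54 over all genes tested. A gene called lower with the block by less than that moved less than the median gene. With block and centring together 25.4% of all genes were called, and 8 members were higher (11.6%, against 8.56%) and 10 were lower (14.5%, against 16.8%). Of the members called on the deposited scale without the block, 4 were called in this fit. These were Dnaja4, Dnajb2 and Hspb8, higher, and Dnajc25, lower. Leaving out S1 replicate 1 left 2 members higher and 3 lower, leaving out S1 replicate 2 left 2 and 1, and leaving out S1 replicate 3 left 4 and 4. Leaving out S3 replicate 1 left 2 and 3, leaving out S3 replicate 3 left 1 and 1, and leaving out the short S3 replicate 2 left 4 and 5.

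**Figure D1:**
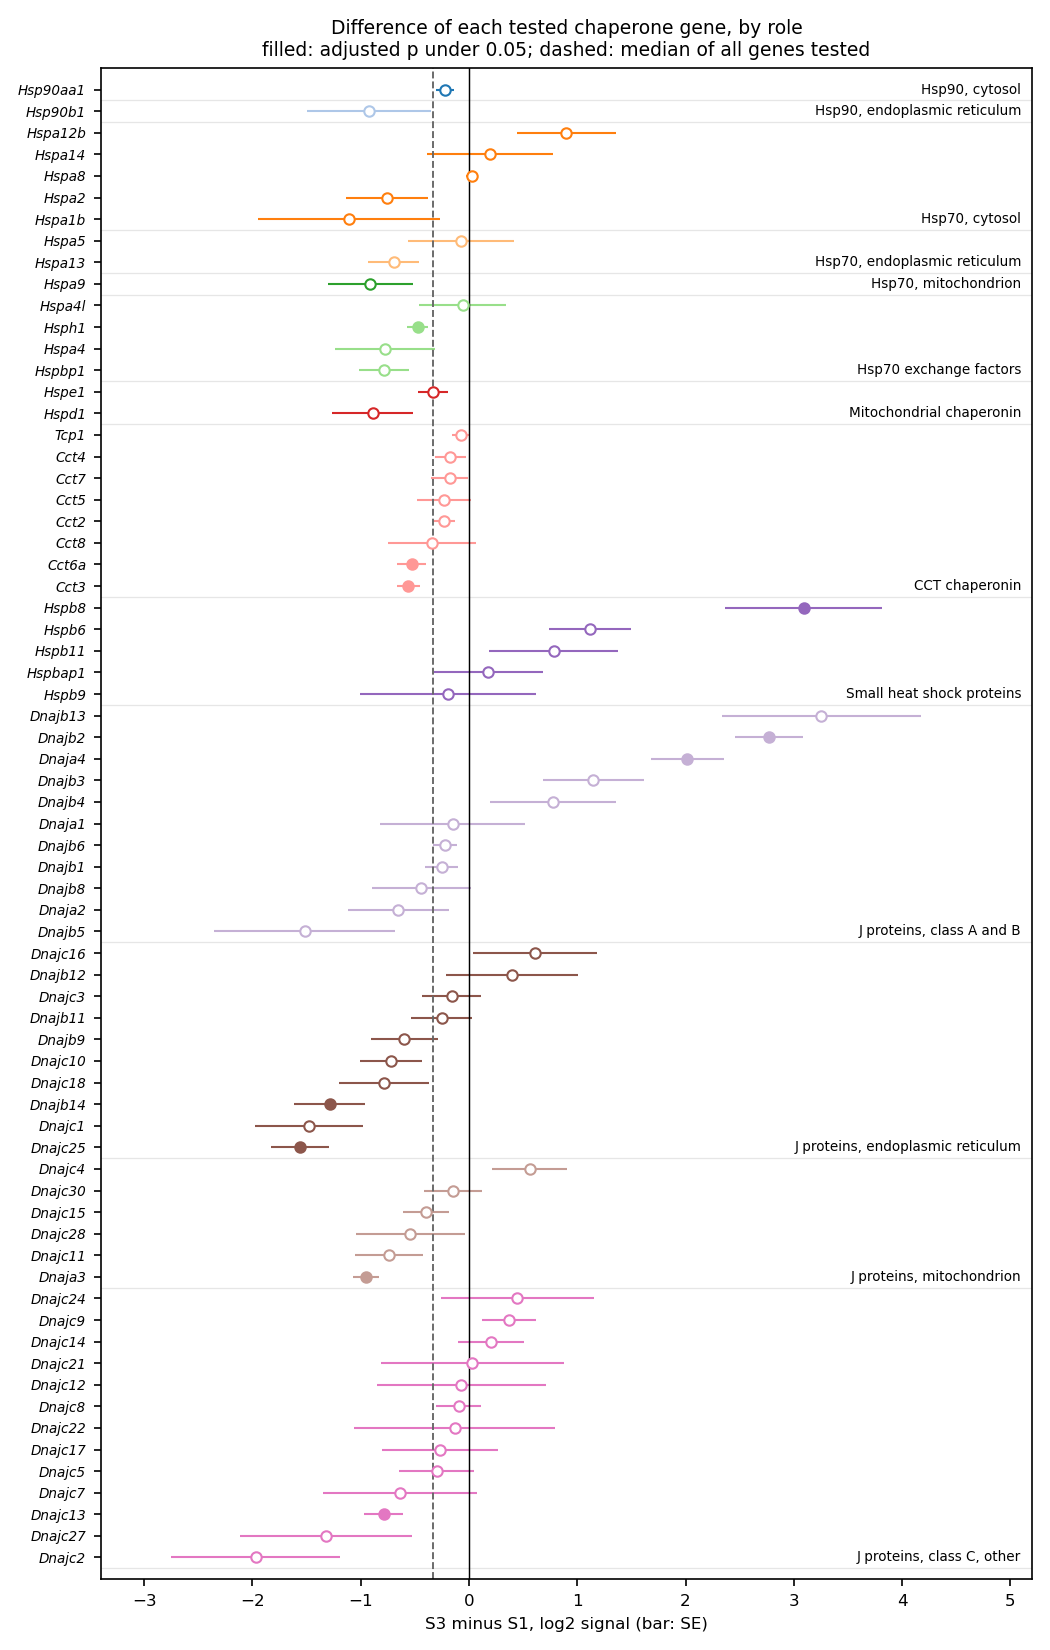
S3 minus S1 log2 difference (horizontal axis) of the 69 tested chaperone genes, grouped by role down the page, with filled points for genes called at an adjusted p under 0.05 open points for the others and bars for the SE; the dashed line is the median of all genes tested, -0.33. The 3 genes called higher lie among the class A and B J proteins and the small heat shock proteins, and the 8 CCT subunits lie between -0.56 and -0.08.

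Class A and B J proteins of the cytosol and nucleus deliver clients to Hsp70. Of 11 tested genes 2 rose (18.2%, against 2.53% of all genes) and none fell (12.8% of all genes fell). Dnajb2, whose protein also binds ubiquitinated clients in neurons, had log2 signals of 8.45, 8.39 and 8.71 in S3 and 5.56, 5.54 and 6.15 in S1. The lowest S3 array lay more than 2 log2 units above the highest S1 array. The means were 8.52 ± 0.17 in S3 and 5.75 ± 0.35 in S1 (SD, n = 3), a difference of 2.77 ± 0.31 (SE, adjusted p = 0.0033), or 6.82-fold. Dnajb2 was called in all 15 other fits, with adjusted p between 3.34e-16 and 0.0266. Its difference was 2.43 on the long arrays and 2.84 on the short arrays.

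Dnaja4, a class A J protein gene, had log2 signals of 8.02, 7.41 and 7.99 in S3 and 5.89, 5.52 and 5.97 in S1. Its groups did not overlap, and the short S3 array was the lowest of the S3 arrays. The means were 7.81 ± 0.34 in S3 and 5.79 ± 0.24 in S1 (SD, n = 3), a difference of 2.02 ± 0.34 (SE, adjusted p = 0.00951), or 4.04-fold. A second probe set of Dnaja4 differed by 2.16 (adjusted p = 0.0374 over probe sets) and a dimmer one by 2.27 (adjusted p = 0.0517). Without S3 replicate 3 the adjusted p for Dnaja4 was 0.0541, with a difference within 1.88 to 2.21 whichever array was left out.

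The window of 250 bases before to 50 after the annotated start of Dnajb2, on chr1:75236452-75236751 (+ strand, RefSeq, GRCm38.p6), is printed because this gene had the firmest rise. Capitals mark its 1 match to AGATAA, the letters bound by GATA factors, searched on both strands.
Dnajb2: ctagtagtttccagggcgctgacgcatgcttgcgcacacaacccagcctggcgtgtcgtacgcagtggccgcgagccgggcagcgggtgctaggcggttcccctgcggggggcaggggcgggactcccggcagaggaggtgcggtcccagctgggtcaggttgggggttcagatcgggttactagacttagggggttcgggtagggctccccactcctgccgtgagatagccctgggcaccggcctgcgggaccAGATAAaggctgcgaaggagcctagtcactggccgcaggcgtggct
AGATAA lay in the windows of 4 of the 68 members with a window (5.88%), against 12.7% of 27025 genes of that table, so the match is common and describes only these letters.

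Other members of this class did not pass the test. Dnajb6, the brightest, had 10.13, 10.20 and 9.98 in S3 and 10.22, 10.47 and 10.29 in S1, and every S3 array lay just below every S1 array, with a difference of -0.22 ± 0.11 (SE, adjusted p = 0.235). Dnajb1, the main stress-inducible partner of Hsp70, had 9.24, 9.32 and 9.51 in S3 and 9.78, 9.44 and 9.59 in S1, and its groups overlapped (difference -0.25 ± 0.15 SE, adjusted p = 0.333). Dnaja1, another Hsp70 partner, had 9.66, 7.53 and 9.49 in S3 and 8.48, 8.48 and 10.18 in S1. There the short arrays of both subsets were low, and the difference of -0.15 ± 0.67 (SE, adjusted p = 0.92) turned to 0.08 on the centred scale, as that of Dnajb6 did to 0.01. With the block, however, Dnaja1 was lower in S3, with a difference of -0.78 (adjusted p = 0.000875). Dnajb13, known for sperm flagella and chosen here after its values were seen, had 3.37, 2.11 and 4.23 in S3 and -0.70, -1.13 and 1.77 in S1, a difference of 3.25 ± 0.92 (SE, adjusted p = 0.0532), or 2.53 (adjusted p = 0.00819) with the block. For Dnajb13 only 1 S1 array was above background, it passed the filter through its S3 arrays, and raising dim values to background gave 1.89. Without the block the remaining 5 tested genes of the class had differences between -1.52 and 1.15 and were not called. With it Dnajb3 was higher, at 1.38 (adjusted p = 0.00639), and Dnaja2 lower, at -1.06 (adjusted p = 0.000599). In the class 4 of 11 genes were higher with the block (36.4%, against 5.81% of all genes) and 2 were lower (18.2%, against 41.2%). Dnajb7 was too dim to test.

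**Figure D2:**
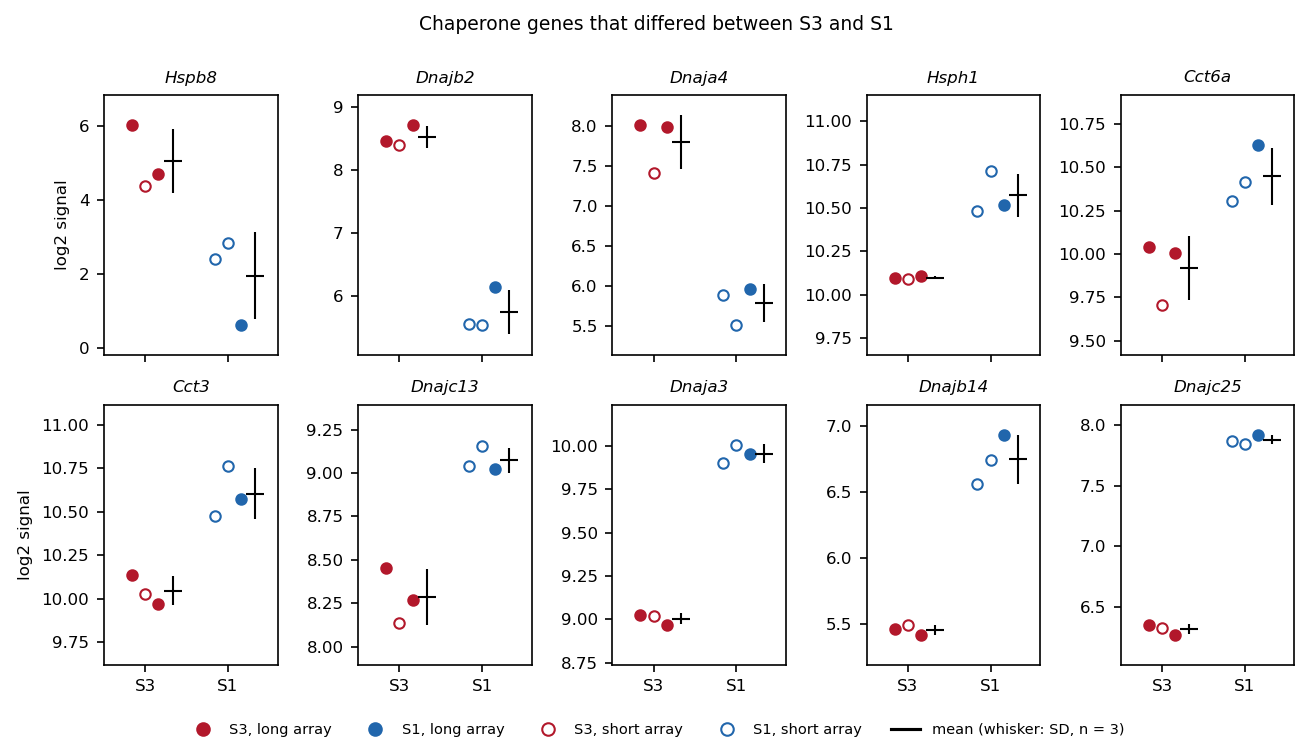
Log2 signal (vertical axis, own range in each panel) on each array for the 10 chaperone genes called at an adjusted p under 0.05, with S3 left of S1, filled points for long arrays, open points for short arrays, and means with SD (n = 3). In each of the 10 genes the 3 S3 arrays and the 3 S1 arrays do not overlap.

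Small heat shock proteins hold unfolded proteins without ATP. Of 5 tested genes grouped with them, 1 rose (20%, against 2.53% of all genes) and none fell (12.8% of all genes fell). Hspb11 and Hspbap1 are among these 5 by their symbols, and whether they act as such holders was not assessed. Hspb8, which works with Bag3 in clearing misfolded proteins, had log2 signals of 6.02, 4.38 and 4.70 in S3 and 2.39, 2.83 and 0.61 in S1. All S3 arrays lay above all S1 arrays, but the spread within each subset was wide and only 2 S1 arrays were above background. The means were 5.03 ± 0.87 in S3 and 1.94 ± 1.18 in S1 (SD, n = 3), a difference of 3.09 ± 0.73 (SE, adjusted p = 0.0296), or 2.71 with dim values raised to background. The difference was 4.75 on the long and 1.77 on the short arrays, and the lone long S1 array read 0.61, below background. The call for Hspb8 was lost without S1 replicate 1, S1 replicate 2, S3 replicate 1 or S3 replicate 3, with adjusted p up to 0.0975.

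Hspb6, a small heat shock protein known from muscle, had 6.95, 6.57 and 7.11 in S3 and 5.68, 5.36 and 6.24 in S1. Every S3 array lay above every S1 array, and the difference was 1.12 ± 0.38 (SE, adjusted p = 0.0932), short of the threshold. It passed in 4 of the 15 other fits, among them median centring and the block, where the difference was 0.92 (adjusted p = 0.00705). Hspb1, the best known stress-inducible member, was not tested: it had 1.03, 0.86 and 1.72 in S3 and -0.04, 0.42 and 2.32 in S1, values at or near background. Hspb2, Hspb3 and Hspb7 were also too dim, and the other 3 tested genes differed by -0.20 to 0.78 without passing. With the block 2 of 5 tested genes were higher (40%, against 5.81% of all genes) and none was lower (41.2% of all genes were). The 2 small heat shock protein genes with separate groups were higher in S3 together with the megakaryocyte marker sum given above, whose part in them was not tested.

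Hspa8, the constitutive cytosolic Hsp70, was not called. Its log2 signals were 11.21, 11.20 and 11.17 in S3 and 11.13, 11.15 and 11.21 in S1, with overlapping groups and a difference of 0.03 ± 0.06 (SE, adjusted p = 0.808). This probe set read close to the top of the arrays, where the brightest gene probe set of each array lay between 11.44 and 11.66. The 3 dimmer probe sets of Hspa8 differed by -0.13, -0.15 and -0.35, none called. Hspa8's brightest probe set carries the suffix that marks probes shared with other transcripts. Among members, the probe sets used for Cct2 and Cct4 carry the same suffix.

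The stress-inducible Hsp70 genes were not called on the deposited scale, with or without the block. Hspa1b had 4.13, 5.73 and 6.44 in S3 and 5.33, 6.24 and 8.07 in S1, with overlapping groups and a wide spread (difference -1.11 ± 0.84 SE, adjusted p = 0.456), and its near-identical copy Hspa1a had 1.13, -3.89 and -0.21 in S3 and 0.52, -1.88 and 2.38 in S1 and was too dim to test. The array may not tell these copies apart. Hspa2, known from male germ cells, had 5.38, 5.60 and 5.74 in S3 and 6.82, 5.97 and 6.22 in S1, with S3 below S1 but a difference of -0.76 ± 0.38 (SE, adjusted p = 0.236). Hspa12b, known from endothelial cells, had 7.09, 5.76 and 7.11 in S3 and 5.91, 5.60 and 5.75 in S1, where only the long S3 arrays stood out (difference 0.90 ± 0.46 SE, adjusted p = 0.246). By limma 0 of the 5 tested cytosolic Hsp70 genes were called, against 2.53% of all genes higher and 12.8% lower. None of the 5 had an unadjusted p under 0.05, and none was called with the block. With block and centring together Hspa12b was higher, at 1.13 (adjusted p = 0.0115), and Hspa1b lower, at -0.97 (adjusted p = 0.0497). Hspa1l and Hspa12a were too dim to test.

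Hspa9, the Hsp70 of the mitochondrial matrix, which pulls in imported proteins and works in iron-sulphur cluster assembly, had 9.89, 8.42 and 9.56 in S3 and 9.93, 9.94 and 10.72 in S1. Every S3 array lay below every S1 array, but the short S3 array was far lower than the other two, and the difference of -0.91 ± 0.39 (SE, adjusted p = 0.174) was not called. It was negative on the long arrays and -1.52 on the short arrays, and with the block it was -1.26 (adjusted p = 6.91e-05). A second probe set of Hspa9 had means of 8.70 in S3 and 9.70 in S1 and was lower with an adjusted p of 0.0139 over probe sets. With block and centring together Hspa9 was lower, at -0.81 (adjusted p = 0.00956). Its brightest probe set was thus lower in S3 within each kind of array, while the call of that probe set depended on how the array class was treated.

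**Figure D3:**
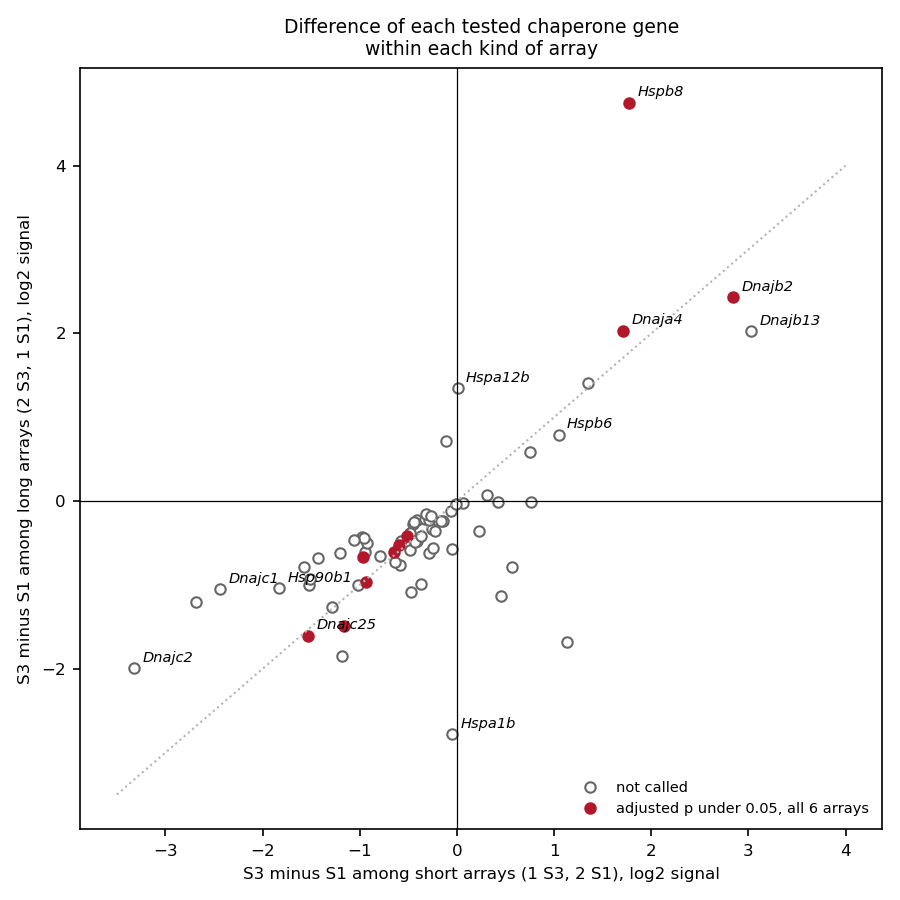
S3 minus S1 log2 difference of each tested chaperone gene among the long arrays (2 S3, 1 S1; vertical axis) and among the short arrays (1 S3, 2 S1; horizontal axis), with filled points for genes called at an adjusted p under 0.05 over all 6 arrays and a dotted line where both are equal. Both differences were negative in 52 of 69 genes and positive in 9.

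Among all members 52 of 69 were lower in S3 both within the long and within the short arrays (75.4%, against 66.9% of all genes), 9 were higher in both (15.1% of all genes were), and 8 differed in sign. All 10 called members had the same sign in both classes as over all arrays. Each within-class difference rests on a single array of one subset.

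Exchange factors release the bound nucleotide from Hsp70. Hsph1, the Hsp110 of the cytosol, fell: it had 10.10, 10.09 and 10.11 in S3 and 10.49, 10.71 and 10.52 in S1, with nearly equal S3 arrays. The means were 10.10 ± 0.01 in S3 and 10.57 ± 0.12 in S1 (SD, n = 3), a difference of -0.47 ± 0.09 (SE, adjusted p = 0.0177), and a second probe set differed by -1.39 ± 0.35 (adjusted p = 0.0486 over probe sets). On the scale centred on each array's median with the block the difference was -0.01, and the call was lost in 7 of 15 other fits, among them those without S1 replicate 2, S3 replicate 1 or S3 replicate 3 (adjusted p up to 0.0685 among the fits leaving out an array). Hspbp1, an inhibitor and exchange factor of Hsp70 chosen here after its values were seen, had 7.94, 8.22 and 7.69 in S3 and 8.84, 8.79 and 8.58 in S1 and a difference of -0.78 ± 0.23 (SE, adjusted p = 0.0585), or -0.68 (adjusted p = 0.00359) with the block. Its groups did not overlap. Hspa4, another Hsp110 gene, also chosen here after its values were seen, had 9.60, 7.91 and 9.43 in S3 and 9.64, 9.32 and 10.30 in S1. Its groups overlapped, with the short S3 array lowest, and the difference was -0.77 ± 0.47 (SE, adjusted p = 0.333), or -1.18 (adjusted p = 0.000393) with the block. Its next brightest probe sets differed by -1.66 (adjusted p = 0.0043 over probe sets) and -1.97 (adjusted p = 0.0054), so Hspa4 was lower by those and not called by the brightest. Hspa4 was also called with the mean of a gene's probe sets. With the block 3 of 4 genes of this class were lower, against 41.2% of all genes. With block and centring together only Hspa4 was lower, at -0.73 (adjusted p = 0.0285). That is 25% of the class, against 16.8% of all genes.

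Hsp90 genes were measured for the cytosol (Hsp90aa1) and the endoplasmic reticulum (Hsp90b1), and Hsp90ab1 is not analysed here. Hsp90aa1, the stress-inducible cytosolic form, had 10.92, 10.70 and 10.92 in S3 and 11.02, 11.04 and 11.14 in S1. Every S3 array lay below every S1 array, by little, and the difference was -0.22 ± 0.08 (SE, adjusted p = 0.128). It was called with the block, at -0.27 (adjusted p = 0.00985), and was 0.01 on the centred scale. Hsp90b1, also called Grp94, had 9.06, 7.17 and 9.15 in S3 and 9.13, 8.86 and 10.14 in S1, where the short S3 array was lowest by far and the groups overlapped (difference -0.92 ± 0.57 SE, adjusted p = 0.352). With the block the difference of Hsp90b1 was -1.44 (adjusted p = 0.000136). With block and centring together Hsp90b1 was lower, at -0.99 (adjusted p = 0.0028). Hsp90aa1 was not called in that fit, at 0.18 (adjusted p = 0.648).

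Of the endoplasmic reticulum Hsp70 genes, neither was called over the 6 arrays without the block, and both were lower with it. With block and centring together neither was called: Hspa5 differed by -0.07 (adjusted p = 0.879) and Hspa13 by -0.23 (adjusted p = 0.649). Hspa5, known as BiP and the main Hsp70 of this compartment, had 9.95, 8.54 and 9.91 in S3 and 8.88, 9.35 and 10.40 in S1, with overlapping groups and a difference of -0.08 ± 0.49 (SE, adjusted p = 0.945) that turned to 0.15 on the centred scale. With the block the difference of Hspa5 was -0.52 (adjusted p = 0.00998). Hspa13, a microsomal ATPase of the family, had 7.42, 7.42 and 7.25 in S3 and 8.01, 8.11 and 8.06 in S1. All its S3 arrays lay below all S1 arrays, and the difference was -0.69 ± 0.23 (SE, adjusted p = 0.0923), or -0.68 (adjusted p = 0.00595) with the block.

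The J proteins of the endoplasmic reticulum, which serve Hspa5 or sit in its membrane, held 2 of the 7 falls among 10 tested genes (12.8% of all genes fell), and in 6 of 10 every S3 array lay below every S1 array, against 29.5% of all genes. Dnajc25 had 6.35, 6.33 and 6.27 in S3 and 7.87, 7.85 and 7.92 in S1, with nearly equal arrays within each subset. The means were 6.32 ± 0.04 in S3 and 7.88 ± 0.04 in S1 (SD, n = 3), a difference of -1.56 ± 0.27 (SE, adjusted p = 0.0106). It held on the centred scale (-1.33), but was lost without S1 replicate 1, S1 replicate 2 or S3 replicate 3, with adjusted p up to 0.0566 and a difference that stayed between -1.58 and -1.54. Dnajb14, a membrane-anchored J protein, had 5.47, 5.49 and 5.42 in S3 and 6.56, 6.74 and 6.93 in S1, a difference of -1.29 ± 0.32 (SE, adjusted p = 0.0374). Its call was lost in 11 of 15 other fits, in all 6 that leave out 1 array (adjusted p 0.0620 to 0.131), and its dim second probe set differed by 0.24.

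Other well known genes of this compartment did not pass. Dnajb9, an Hspa5 co-factor that helps degrade misfolded proteins, had 6.70, 7.29 and 6.97 in S3 and 7.88, 7.56 and 7.32 in S1, with non-overlapping groups and a difference of -0.60 ± 0.31 (SE, adjusted p = 0.258). Dnajc3, an inhibitor of the eIF2alpha kinase Perk, had 8.46, 7.85 and 8.56 in S3 and 8.29, 8.29 and 8.76 in S1 and overlapping groups (difference -0.16 ± 0.27 SE, adjusted p = 0.774). Dnajb11, the brightest of the class, had 8.45, 7.89 and 8.52 in S3 and 8.60, 8.14 and 8.86 in S1 and overlapping groups (difference -0.25 ± 0.28 SE, adjusted p = 0.64). With the block Dnajb11 differed by -0.43 (adjusted p = 0.0497), and Dnajc3 turned to 0.07 on the centred scale. Without the block the other 5 genes of the class differed by -1.47 to 0.61, none called. With it Dnajc1 (-1.75, adjusted p = 0.00164), Dnajc10 (-0.70, adjusted p = 0.0208) and Dnajc18 (-1.01, adjusted p = 0.0113) were lower. In the class as a whole 6 of 10 genes were lower with the block (60%, against 41.2% of all genes). With block and centring together 2 of 10 were (20%, against 16.8%).

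The promoter windows of Hspa5, Hsp90b1 and Dnajc3 (RefSeq, GRCm38.p6) are shown because they share the endoplasmic reticulum stress element. This element is CCAAT and CCACG with any 9 bases between them. Without the block none of the 3 genes was called. With the block Hspa5 (-0.52) and Hsp90b1 (-1.44) were lower, and Dnajc3 was not called. The Hspa5 window is whole (chr2:34771840-34772139, + strand), and for Hsp90b1 (chr10:86705523-86705666, - strand) and Dnajc3 (chr14:118937817-118937855, + strand) only the stretch around the matches is given. Capitals mark the matches on either strand.
Hspa5: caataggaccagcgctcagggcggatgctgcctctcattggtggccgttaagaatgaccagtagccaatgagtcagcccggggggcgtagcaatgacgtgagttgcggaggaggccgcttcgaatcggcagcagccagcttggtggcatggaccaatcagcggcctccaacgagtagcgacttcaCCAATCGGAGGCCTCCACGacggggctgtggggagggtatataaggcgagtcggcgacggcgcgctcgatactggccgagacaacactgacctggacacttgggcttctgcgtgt
Hsp90b1: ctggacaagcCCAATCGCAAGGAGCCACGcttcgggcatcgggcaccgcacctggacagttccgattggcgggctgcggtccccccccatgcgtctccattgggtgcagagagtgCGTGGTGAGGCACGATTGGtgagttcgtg
Dnajc3: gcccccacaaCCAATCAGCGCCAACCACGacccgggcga
The element lay in the windows of 3 of 68 members (4.41%), against 0.137% of all genes in the table. A match describes the letters only.

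The mitochondrial chaperonin is built from Hspd1 (Hsp60) and its lid Hspe1 (Hsp10), which are transcribed from a shared promoter region. Hspd1 had 9.81, 8.45 and 9.67 in S3 and 9.95, 9.98 and 10.66 in S1. Every S3 array lay below every S1 array, and the difference was -0.89 ± 0.38 (SE, adjusted p = 0.164). With the block the difference of Hspd1 was -1.22 (adjusted p = 6.50e-05). Hspe1 had 10.74, 10.42 and 10.41 in S3 and 10.60, 10.98 and 10.99 in S1, with S3 replicate 1 above S1 replicate 1. Its difference was -0.33 ± 0.14 (SE, adjusted p = 0.158), or -0.39 (adjusted p = 0.0214) with the block. With block and centring together Hspd1 was lower, at -0.77 (adjusted p = 0.0143). Hspe1 was not called in that fit, at 0.06 (adjusted p = 0.903).

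The J proteins of the mitochondrion held the fall with the smallest adjusted p among members. Dnaja3, which works with Hspa9 in the matrix, had 9.02, 9.02 and 8.97 in S3 and 9.90, 10.01 and 9.96 in S1. The 3 S3 arrays were nearly equal and lay far below the S1 arrays, with a difference of -0.95 ± 0.12 (SE, adjusted p = 0.00447). The call of Dnaja3 held whichever array was left out (adjusted p 0.00816 to 0.0326) and was lost in 3 of 15 other fits, with an adjusted p of 0.206 under median centring, where the difference was smaller but still negative. Dnajc15, the brightest of this class and linked to the import motor, had 9.69, 9.62 and 9.29 in S3 and 9.51, 10.22 and 10.05 in S1 and a difference of -0.40 ± 0.21 (SE, adjusted p = 0.267), with overlapping groups. The other 4 tested genes differed by -0.74 to 0.56 and were not called. With the block 1 gene of the class was higher (16.7%, against 5.81% of all genes) and 2 were lower (33.3%, against 41.2%). Dnajc19 is not analysed here.

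The cytosolic CCT chaperonin, whose rings hold 8 different subunits, folds actin and tubulin. Its 8 tested subunit genes all had negative differences, between -0.56 and -0.08 with a median of -0.23, which is above the -0.33 of all genes, while with each array centred on its median the differences of Tcp1 (0.15), Cct4 (0.06) and Cct7 (0.05) were positive. Cct3 had 10.14, 10.03 and 9.97 in S3 and 10.47, 10.76 and 10.57 in S1, with non-overlapping groups and means of 10.04 ± 0.08 in S3 and 10.60 ± 0.15 in S1 (SD, n = 3). Its difference was -0.56 ± 0.11 (SE, adjusted p = 0.0153). Its other 6 probe sets were all negative and none was called over probe sets. The call of Cct3 was lost in 6 of 15 other fits. Among them were those without S1 replicate 2 or S3 replicate 3, with adjusted p up to 0.0634. With median centring its adjusted p was 0.62, and with block and centring together it was 0.811, at a difference of -0.11.

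Cct6a had 10.04, 9.71 and 10.01 in S3 and 10.30, 10.41 and 10.63 in S1, again without overlap, and a difference of -0.53 ± 0.14 (SE, adjusted p = 0.039). The call of Cct6a was lost in 11 of 15 other fits. These included each of the 6 fits that leave out 1 array (adjusted p 0.0702 to 0.107) and median centring (adjusted p = 0.607). The other subunits did not pass: the differences were -0.23 for Cct2, -0.17 for Cct4, -0.23 for Cct5, -0.18 for Cct7, -0.34 for Cct8 and -0.08 for Tcp1. Cct2 had 10.63, 10.43 and 10.52 in S3 and 10.64, 10.72 and 10.91 in S1, and was the only one of these 6 without overlap. Cct8 had 10.28, 8.82 and 10.09 in S3 and 9.92, 9.67 and 10.62 in S1, where the short S3 array lay far below the rest. With the block 7 of 8 subunit genes were lower, against 41.2% of all genes. Their median difference with the block was -0.38, smaller in size than the -0.54 of all genes. The block gave -0.30 (adjusted p = 0.0122) for Cct2, -0.29 (adjusted p = 0.0169) for Cct4, -0.45 (adjusted p = 0.0061) for Cct5, -0.32 (adjusted p = 0.0163) for Cct7 and -0.70 (adjusted p = 0.00198) for Cct8. With block and centring together 0 of 8 were called by limma, against 16.8% of all genes lower. The 6 other probe sets of Cct4 ran from -1.71 to 1.58, and 1 of them, at -1.71, was lower with an adjusted p of 0.0188 over probe sets. Cct6b, a testis form, and Cct8l1 were too dim to test.

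**Figure D4:**
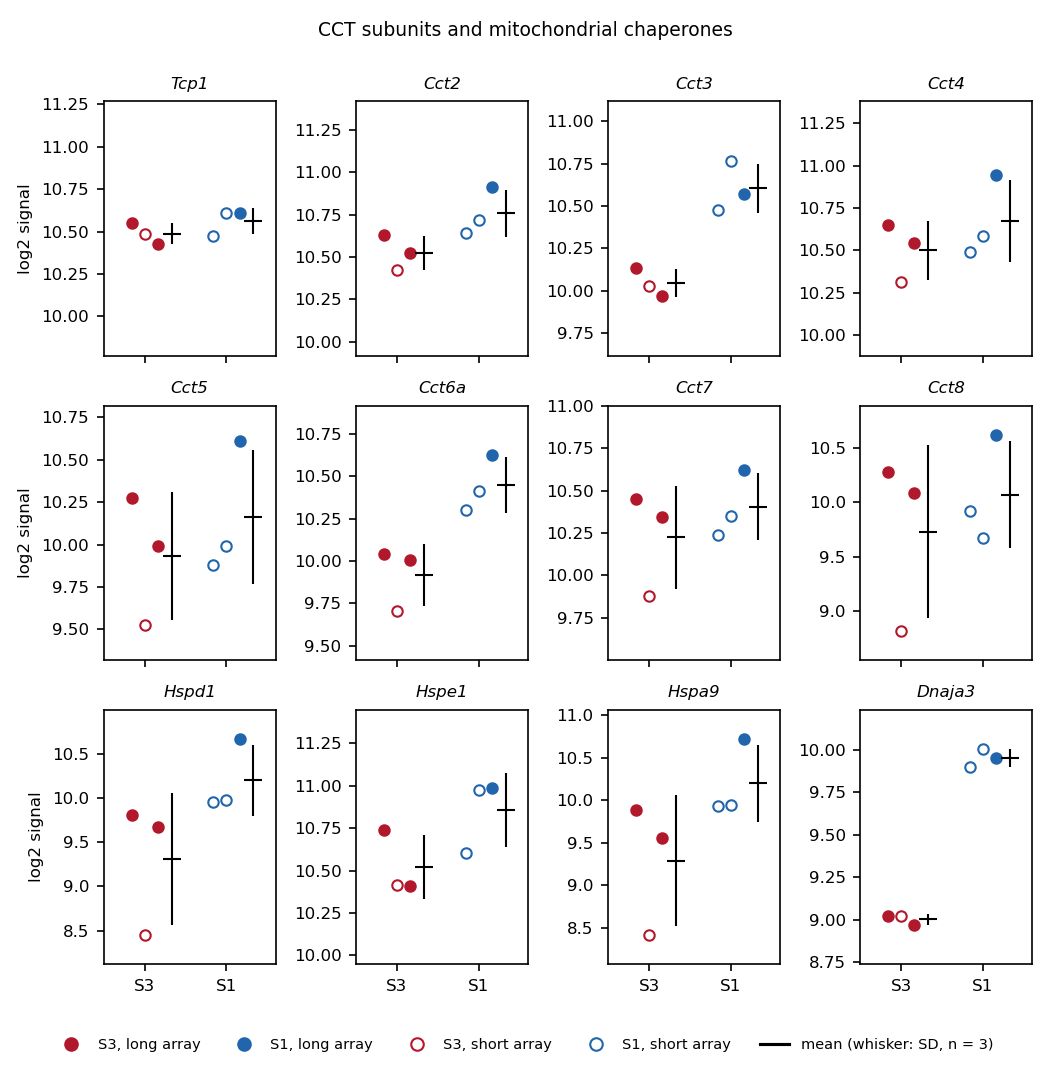
Log2 signal (vertical axis) on each array for the 8 CCT subunit genes, the mitochondrial chaperonin genes Hspd1 and Hspe1, Hspa9 and Dnaja3, each panel with its own range, S3 left of S1, filled points for long arrays, open points for short arrays, and means with SD (n = 3). S3 replicate 2, a short array, is the lowest S3 array for most subunits, and Cct3, Cct6a and Cct2 have no overlap between subsets.

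Promoter windows of Hsph1 and Hspe1 (RefSeq, GRCm38.p6) are shown because they hold 3 joined heat shock units, the letters bound by heat shock factors. The units are GAA, TTC and GAA with any 2 bases between neighbours. Without the block Hsph1 fell and Hspe1 was not called. Dnajb6 holds the same units and is given as a short stretch. The windows are chr5:149636266-149636565 (- strand) for Hsph1, chr1:55087898-55088197 (+ strand) for Hspe1 and chr5:29735842-29735874 (+ strand) for Dnajb6. Capitals mark the matches, on either strand, and overlapping matches run together.
Hsph1: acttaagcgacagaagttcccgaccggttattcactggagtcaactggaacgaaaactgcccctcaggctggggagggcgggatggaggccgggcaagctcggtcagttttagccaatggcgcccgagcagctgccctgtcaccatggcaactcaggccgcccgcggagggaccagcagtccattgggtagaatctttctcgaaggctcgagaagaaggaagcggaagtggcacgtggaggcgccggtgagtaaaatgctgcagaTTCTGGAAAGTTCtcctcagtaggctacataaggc
Hspe1: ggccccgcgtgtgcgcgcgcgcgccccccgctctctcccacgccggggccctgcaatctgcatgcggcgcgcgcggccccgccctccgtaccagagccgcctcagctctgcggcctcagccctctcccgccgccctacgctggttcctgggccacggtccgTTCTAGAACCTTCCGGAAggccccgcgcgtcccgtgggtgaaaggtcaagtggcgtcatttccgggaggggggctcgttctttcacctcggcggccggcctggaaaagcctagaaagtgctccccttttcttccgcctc
Dnajb6: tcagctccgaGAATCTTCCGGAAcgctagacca
These units lay in the windows of 4 of 68 members (5.88%), the fourth being Hspd1, whose window shares 285 bases with that of Hspe1 on the other strand, against 0.662% of all genes in the table. Of the 4, only Hsph1 was called without the block. With the block Hspd1 (-1.22) and Hspe1 (-0.39) were lower too, and Dnajb6 was not called. A match describes the letters only.

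The remaining J proteins of class C have varied roles. Dnajc13, an endosomal J protein, fell: it had 8.45, 8.13 and 8.27 in S3 and 9.04, 9.15 and 9.03 in S1, with non-overlapping groups and a difference of -0.79 ± 0.18 (SE, adjusted p = 0.0278). The call was lost in 11 of 15 other fits. These included each of the 6 fits that leave out 1 array (adjusted p 0.0593 to 0.109) and median centring (adjusted p = 0.363). Dnajc8, a splicing-associated J protein and the brightest of the class, had 9.58, 8.97 and 9.37 in S3 and 9.15, 9.42 and 9.63 in S1 and overlapping groups (difference -0.10 ± 0.21 SE, adjusted p = 0.826). Dnajc2, a ribosome-bound J protein also known as Mpp11 and chosen here after its values were seen, had 7.82, 5.16 and 7.96 in S3 and 8.48, 8.49 and 9.88 in S1, with S3 below S1 and the short S3 array lowest. Its difference was -1.97 ± 0.78 (SE, adjusted p = 0.141), and -2.66 (adjusted p = 2.99e-05) with the block. With block and centring together it was -2.21 (adjusted p = 2.24e-10). Another probe set of Dnajc2 was lower without the block, at -1.57 (adjusted p = 0.0414 over probe sets). The other 10 tested genes differed by -1.32 to 0.45 and were not called; Dnajc5b, Dnajc5g and Dnajc6 were too dim to test. With the block 5 of the 13 were lower, against 41.2% of all genes.

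**Figure D5:**
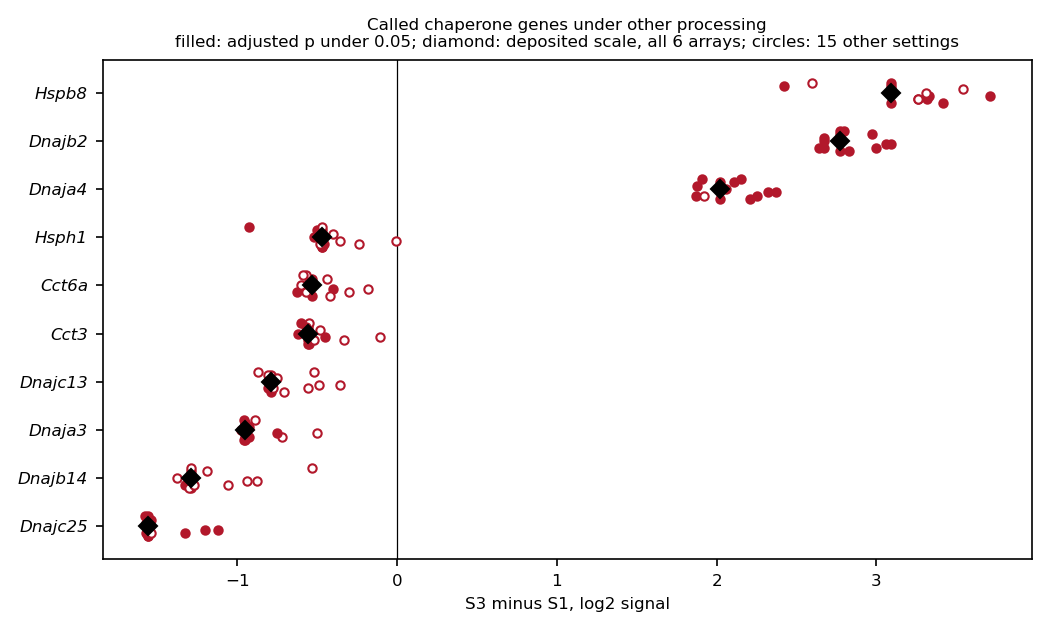
S3 minus S1 log2 difference (horizontal axis) of the 10 called chaperone genes under the value reported (diamond) and each of 15 other settings (circles), with filled points for an adjusted p under 0.05. Dnajb2 stays filled under all 15, and the differences of Cct3, Hsph1 and Cct6a lie closest to 0.

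The genes that work with these chaperones were listed as 59 partners, of which 54 were measured and 52 tested. None rose and 8 fell (15.4%, against 12.8% of all genes tested), and 49 of 52 differences were negative, with a median of -0.56. At an unadjusted p under 0.05, 0 of 52 partners were higher (5.33% of all genes were) and 22 of 52 were lower (24.2% of all genes were). In 28 of 52 partners every S3 array lay below every S1 array (53.8%, against 29.5% of all genes), and in none every S3 array lay above (5.81% of all genes). The firmest fall was in St13, the Hsp70-interacting protein Hip, which had 8.98, 8.59 and 8.76 in S3 and 10.11, 10.22 and 10.31 in S1. Its groups did not overlap, and the difference was -1.43 ± 0.15 (SE, adjusted p = 0.00302). Pdcl, a phosducin-like CCT cofactor, had means of 8.58 ± 0.05 in S3 and 9.58 ± 0.08 in S1 (SD, n = 3), with an adjusted p of 0.00626. In the endoplasmic reticulum, Ero1a (a thiol oxidase) differed by -0.87 ± 0.16 (SE, adjusted p = 0.0121), P4hb (a disulphide isomerase) by -0.71 ± 0.15 (SE, adjusted p = 0.0212) and Sil1 (an exchange factor of Hspa5) by -1.22 ± 0.33 (SE, adjusted p = 0.0478). The mitochondrial protease gene Clpp differed by -0.81 ± 0.15 (SE, adjusted p = 0.0131). Among Hsp90 co-chaperones, Chordc1 differed by -0.61 ± 0.13 (SE, adjusted p = 0.0222) and Unc45a by -1.15 ± 0.29 (SE, adjusted p = 0.0381). With the block 40 of 52 partners were lower (76.9%, against 41.2% of all genes), and with each array centred on its median 3 of 52 were. Without S1 replicate 1, 2 or 3 the fallen partners numbered 3, 2 and 5, and without S3 replicate 1, 2 or 3 they numbered 4, 9 and 4. St13 and Pdcl were called in all 6 of these fits, and the other 6 genes were lost in at least 1. With centring, St13 was the only one of the 8 still called (adjusted p = 0.0297), and Pdcl was not (adjusted p = 0.18).

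Several partners showed no call. Hsf2, a heat shock factor, had 1.18, 1.22 and 0.92 in S3 and 2.16, 2.21 and 2.16 in S1, dim values with a difference of -1.07 ± 0.45 (SE, adjusted p = 0.158). Stub1, the ubiquitin ligase CHIP, differed by -0.19 ± 0.33 (SE, adjusted p = 0.774), and Bag1, an exchange factor of Hsp70, by -0.03 ± 0.14 (SE, adjusted p = 0.929); both had overlapping groups and turned positive on the centred scale (0.04 and 0.20), while with the block Stub1 was lower, at -0.45 (adjusted p = 0.0285). Hsf1, Ptges3 and Ppid are not analysed here.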

How the data were processed

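RNA of 6 sorted samples was amplified, tagged with biotin and hybridised to 1 array each. The deposited log2 signals are the authors' MAS5 values, which the series' design text says were scaled to probe sets of 18S, Gapdh and beta-actin, and the submitters' processing notes also name MAS5. Its version and scaling target: not given in the sources used here. Base 2 was taken from the size of the signals. Of 45101 probe sets, 34945 had 1 gene symbol in the platform annotation, 932 several and 9160 none, and 64 were controls. No detection calls were used.

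Genes were tested where the mean log2 signal of their brightest probe set passed the 40th percentile (1.12). The subset difference came from limma 3.58.1 under R 4.3.3 (eBayes with trend, a two-sided moderated test, 4 residual and 3.41 prior degrees of freedom), with Benjamini-Hochberg p-values over all 11959 genes and a threshold of 0.05. The fit was also run on simulated arrays with normal noise drawn independently for each gene and array. These had no short and long classes, so that run cannot show how the classes move the counts. Probe sets of a gene were also fitted over all probe sets. Promoter windows are RefSeq's, matched by symbol for 68 members.

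The members, roles and partner lists were chosen with earlier results of these data known. Named members were all those called, the brightest of each role class, the 2 of smallest p in a class with no call, and some well known genes; named partners were up to 8 called ones and 4 set genes, of which Hsf1 is not analysed here. Alternatives were median centring, quantile normalization, no filter and a 60th percentile filter, no intensity trend, averaging the probe sets of a gene, blocking on the replicate number, blocking on the array class (short where the actin difference lay below -1.5) alone or with centring, and leaving out each array; the long or short arrays alone were added after seeing the data.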

Additional observations from a re-analysis of the deposited data

How the results depend on the processing

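Against 3 members higher, 7 members lower and 8 partners lower, the counts were 5, 1 and 3 with median centring, 6, 4 and 5 with quantile normalization, 3, 5 and 7 with no filter, 3, 8 and 9 with the 60th percentile filter, 3, 3 and 5 with no intensity trend, and 3, 3 and 4 with the mean of a gene's probe sets. They were 7, 32 and 40 with the block for short and long arrays, 8, 10 and 10 with that block and centring, 8, 31 and 34 on the long arrays alone, and 2, 17 and 20 on the short arrays alone; in both of these one subset has a single array, assumed to vary like the others. Leaving out each array gave 1 to 4, 1 to 5 and 2 to 9. No partner was higher under any of these settings. With the replicate number as a block the counts were 4, 9 and 12. Deviations of same-numbered arrays correlated at -0.19, 0.36 and 0.43. Whatever their numbers, S3 and S1 arrays of the same class, short or long, correlated at 0.28 to 0.43. Those of different class correlated at -0.575 to -0.192. The sign followed the class, so these values cannot show whether the numbers pair the samples. Fewer samples enter where arrays are left out, fewer or more genes are tested where the filter changes, and for the rest the cause was not tested. Of the genes named, the following were not called and turned sign; other genes of the lists, not named, also did. With centring they were 0.20 for Bag1, 0.06 for Cct4, 0.05 for Cct7, 0.08 for Dnaja1, 0.01 for Dnajb6, 0.07 for Dnajc3, 0.14 for Dnajc8, 0.01 for Hsp90aa1, 0.15 for Hspa5, 0.04 for Stub1 and 0.15 for Tcp1. With quantile normalization they were 0.14 for Bag1, 0.10 for Dnaja1, 0.06 for Dnajb11, 0.16 for Dnajc3, 0.15 for Dnajc8, 0.13 for Hspa5, 0.12 for Stub1 and 0.02 for Tcp1. With the class block and centring they were 0.50 for Bag1, 0.15 for Cct2, 0.16 for Cct4, 0.00 for Cct5, 0.13 for Cct7, 0.19 for Dnajb1, 0.02 for Dnajb11, 0.26 for Dnajb6, 0.04 for Dnajc15, 0.10 for Dnajc3, 0.21 for Dnajc8, 0.18 for Hsp90aa1, 0.06 for Hspe1, 0.00 for Stub1 and 0.36 for Tcp1. With the class block alone Bag1 was 0.05, on the short arrays alone it was 0.15, with the mean of probe sets Dnajb1 was 0.17 and Hspa8 -0.15, and on the long arrays alone Hspa8 was -0.02. Leaving out 1 array gave -0.14 to 0.08 for Bag1, -0.61 to 0.11 for Cct8, -0.54 to 0.53 for Dnaja1, -0.29 to 0.06 for Dnajc3, -0.23 to 0.07 for Dnajc8, -0.41 to 0.39 for Hspa5 and -0.35 to 0.09 for Stub1. None of the 10 called members changed sign under any setting. Signal over background limits the dim members: 3 of 82 were below background on every array, and 13 had no test.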
